A study of Mus musculus with 9 samples.

Results

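The genes described here are the receptors, kinases and lyase of sphingosine 1-phosphate (S1P). They were chosen by gene symbol, and all 8 (S1pr1, S1pr2, S1pr3, S1pr4, S1pr5, Sphk1, Sphk2 and Sgpl1) were found among the 55487 gene IDs of each library and are the members of the set. RNA was sequenced from monocytes sorted from the spleens of C57BL/6 mice, untreated, as 9 libraries in 3 groups of 3. The groups were Ly6Clo monocytes from mice homozygous for deletion of the +37 element of Cebpa (labelled Cebpa +37-/-, here KO), Ly6Clo monocytes from WT mice and Ly6Chi monocytes from WT mice. Cebpa encodes the myeloid transcription factor C/EBPα. The labels give no age and do not say whether the libraries of a group came from separate animals, so each p-value reflects only the variation among them, which may be technical. Within WT Ly6Chi, however, sex-linked genes (given below) differed, so those libraries did not all come from the same animal. A Ly6Chi group of the KO genotype was not analysed here.

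S1P is a lipid made inside cells when the sphingosine kinases, Sphk1 and Sphk2, phosphorylate sphingosine. The lyase Sgpl1 breaks it down irreversibly. S1P is abundant in blood and lymph and scarce in most tissue, and leukocytes read this gradient through G protein-coupled receptors when they leave lymphoid organs. In the mouse, S1pr1 serves the exit of lymphocytes and S1pr5 is known for the exit of NK cells and Ly6Clo monocytes from bone marrow.

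The libraries held 48141590 to 173703361 counts. Levels below are CPM, counts scaled to library size with TMM factors. Where genes are compared with each other they are TPM, which also allows for gene length. Cebpa itself was 4.04, 2.89 and 2.74 CPM in the KO Ly6Clo libraries, against 18.2, 17.7 and 19.2 CPM in those of WT Ly6Clo cells (log2 fold change -2.51 ± 0.27 SE, adjusted p = 0.015, edgeR quasi-likelihood test with Benjamini-Hochberg adjustment). A gene is said to be called, and to rise or fall, where this adjusted p was under 0.05. The Cebpa call was met under 9 of 17 alternative settings, which were other tools, filters and scalings or 1 library left out. Summed levels of 6 Ly6Chi monocyte markers were 123.7 to 206.8 CPM in KO Ly6Clo, 141.4 to 153.0 CPM in WT Ly6Clo and 6955.3 to 7765.2 CPM in WT Ly6Chi libraries. Summed levels of 7 Ly6Clo markers were 7231.2 to 13238.3 CPM in KO Ly6Clo and 10026.5 to 19412.5 CPM in WT Ly6Clo libraries. In WT Ly6Chi libraries 1, 2 and 3 the same sum was 1241.8, 5453.9 and 5865.6 CPM, and each of the 7 markers was lowest in library 1. WT Ly6Chi library 3 stood apart by sex-linked genes, with 1471 counts of Xist against at most 2 in each other library, and 0 counts of Ddx3y, Eif2s3y and Kdm5d. That is the pattern of female cells. Each other library had 3326 counts of Ddx3y or more, the pattern of male cells. These are bulk samples, in which fewer cells of a type cannot be told apart from less RNA per cell.

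S1pr5 and S1pr4 were the members called higher in WT Ly6Clo than in WT Ly6Chi monocytes, so the DNA at their starts is shown first. The 300 bases run from 250 before to 50 after the start of transcription, 5′ to 3′ on the minus strand, from RefSeq on GRCm38.p6. Capitals mark the letters CACCC, a sequence bound by Krüppel-like factors, or GGGTG, its reverse complement. The S1pr5 window is chr9:21248394-21248693 and the S1pr4 window chr10:81500088-81500387.
S1pr5: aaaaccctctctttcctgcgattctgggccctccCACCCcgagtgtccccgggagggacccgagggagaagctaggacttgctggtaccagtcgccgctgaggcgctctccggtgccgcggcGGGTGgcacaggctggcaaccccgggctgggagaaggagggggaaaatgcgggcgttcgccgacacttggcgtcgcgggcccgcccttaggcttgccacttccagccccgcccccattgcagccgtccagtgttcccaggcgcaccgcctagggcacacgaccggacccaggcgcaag
S1pr4: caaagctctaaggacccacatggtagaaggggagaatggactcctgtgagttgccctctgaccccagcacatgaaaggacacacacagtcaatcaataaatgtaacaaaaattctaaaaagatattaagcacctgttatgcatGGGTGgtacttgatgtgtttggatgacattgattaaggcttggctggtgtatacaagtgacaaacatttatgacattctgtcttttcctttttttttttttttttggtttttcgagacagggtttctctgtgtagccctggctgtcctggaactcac
The S1pr5 window is GC-rich (69.3%) and holds CACCC at -216 and GGGTG at -128, counted in bases from the start. The S1pr4 window has 41.0% GC and holds GGGTG at -107. CACCC on either strand occurs in 57.5% of all 32851 RefSeq promoter windows of this length, so its presence does not set these promoters apart. Neither window held AAAGGTCA (an NR4A element, in 1.51% of windows), TTGCNNAA (C/EBP, in 10.8%), AGGTGTGA (T-box, in 1.28%) or GAGGAA (the PU.1 core, in 28.3%). Promoters were found for 7 of the 8 members, and none for S1pr1.

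S1pr5 was the most abundant S1P receptor transcript in every library. The gene (ENSMUSG00000045087) lies on the minus strand of chromosome 9 at 21242912 to 21248443 on GRCm38. It stood at 854.5, 781.9 and 810.9 CPM in KO Ly6Clo, at 1222.9, 1014.4 and 934.4 CPM in WT Ly6Clo, and at 59.3, 188.9 and 174.8 CPM in WT Ly6Chi libraries 1, 2 and 3. All Ly6Clo libraries of either genotype thus lay above all Ly6Chi libraries. The KO Ly6Clo libraries all lay below the WT Ly6Clo libraries on this scale and in TPM, but in deposited CPM they overlapped (744.4 to 910.6 in KO Ly6Clo and 881.1 to 1226.3 in WT Ly6Clo). In rank by TPM among all genes, S1pr5 was between 96 and 127 in KO Ly6Clo, between 69 and 111 in WT Ly6Clo, and between 685 and 2324 in WT Ly6Chi libraries.

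WT Ly6Clo monocytes held 7.50-fold more S1pr5 than WT Ly6Chi monocytes (log2 fold change 2.91 ± 0.39 SE, adjusted p = 0.0059, edgeR quasi-likelihood test with Benjamini-Hochberg adjustment). KO Ly6Clo monocytes held 5.79-fold more than WT Ly6Chi monocytes (2.53 ± 0.38, adjusted p = 0.0079 in the same test). Both calls were met under all 17 alternative settings. These comparisons share the WT Ly6Chi libraries, in which library 1 was the lowest for S1pr5 and for each Ly6Clo marker. Without that library the log2 fold changes were 2.55 for WT Ly6Clo (adjusted p = 0.0016) and 2.16 for KO Ly6Clo (adjusted p = 0.0014 in the same test). The library numbers fall into 2 series. The first holds only library 1 of WT Ly6Chi, and the second only library 3 of each Ly6Clo group. Within them the log2 differences were 4.24 and 2.36 for WT Ly6Clo and 3.79 and 2.16 for KO Ly6Clo, each against WT Ly6Chi. Each of these values thus has 1 library on 1 side. By genotype, KO against WT Ly6Clo monocytes gave -0.37 ± 0.36 (adjusted p = 1.0), so a difference by genotype was not called.

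NK cells also express S1pr5, and the 9 NK cell markers varied between libraries. Their sum was 19.6, 397.5 and 98.3 CPM in KO Ly6Clo, 75.8, 294.6 and 227.8 CPM in WT Ly6Clo cells, and 40.2, 128.0 and 92.3 CPM in WT Ly6Chi cells. S1pr5 was 854.5 CPM in KO Ly6Clo library 1, where the NK markers summed to 19.6 CPM. There Prf1 and Eomes, which encode perforin and a T-box factor, were at 0 counts, and the other NK markers had 24 (Klre1) to 348 (Nkg7) counts. The part of NK cell RNA in the S1pr5 level was not tested. The predicted gene Gm48303 overlaps the S1pr5 start on the opposite strand and had 1.58 to 8.46 CPM in KO Ly6Clo, 0.431 to 4.14 CPM in WT Ly6Clo and 0.0626 to 0.184 CPM in WT Ly6Chi. Reads of the pair could not be told apart if counting ignored strand.

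**Figure D1:**
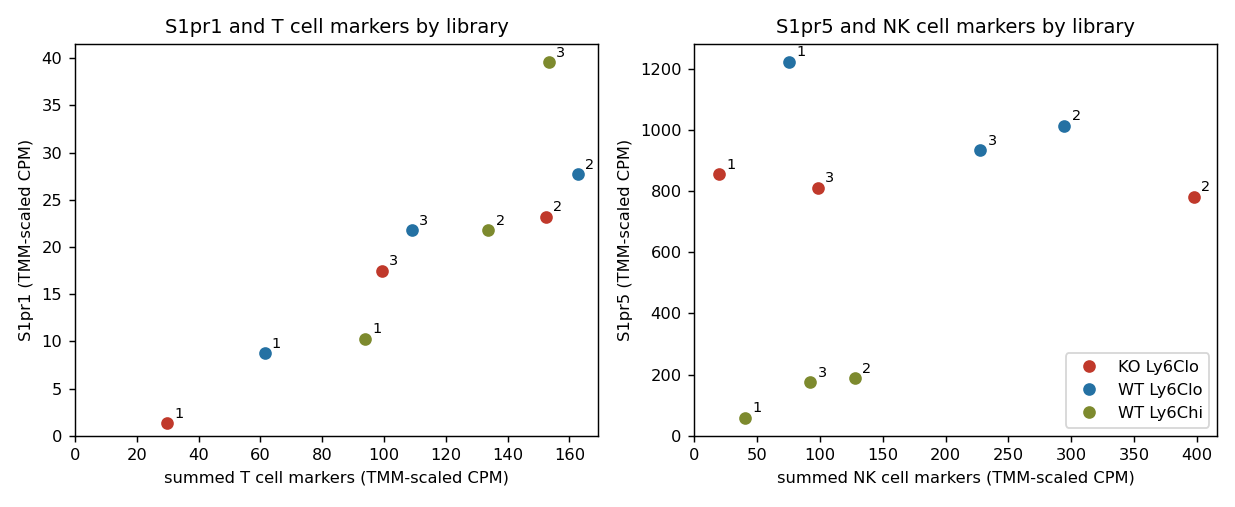
Left, S1pr1 against the summed T cell markers, and right, S1pr5 against the summed NK cell markers, each point 1 library (TMM-scaled CPM on all axes, numbers give the replicate, colours the group). S1pr1 runs from 1.33 to 39.6 CPM and takes the same order as the T cell markers within each group, as does the Ly6Clo marker sum, not drawn. KO Ly6Clo library 1 has 854.5 CPM of S1pr5 with 19.6 CPM of NK cell markers.

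S1pr4 encodes a receptor found mainly in blood-forming and immune cells. The gene (ENSMUSG00000044199, minus strand of chromosome 10, 81497747 to 81500132) was counted over 1 exon block and overlaps no other gene. S1pr4 had 23.9, 19.2 and 21.9 CPM in KO Ly6Clo, 32.7, 24.1 and 27.9 CPM in WT Ly6Clo cells, and 11.2, 12.3 and 14.6 CPM in WT Ly6Chi cells. KO Ly6Clo libraries lay between WT Ly6Clo libraries, which were higher, and WT Ly6Chi libraries, which were lower. KO and WT Ly6Clo were only just apart on this scale and overlapped in deposited CPM (18.2 to 25.5 in KO Ly6Clo and 20.9 to 32.8 in WT Ly6Clo) and in TPM (25.8 to 33.1 in KO Ly6Clo and 28.9 to 43.6 in WT Ly6Clo). S1pr4 was 2.22-fold higher in WT Ly6Clo than in WT Ly6Chi (log2 fold change 1.15 ± 0.22 SE, adjusted p = 0.025, edgeR quasi-likelihood test with Benjamini-Hochberg adjustment). That call rested on every one of the 6 libraries compared: leaving out any of them gave adjusted p-values of 0.054 to 0.1 at log2 fold changes of 1.04 to 1.28. Within the 2 series of library numbers the log2 differences were 1.35 and 1.05, each with 1 library on 1 side. KO Ly6Clo against WT Ly6Chi gave 0.77 ± 0.22 (adjusted p = 0.094), and KO against WT Ly6Clo gave -0.38 ± 0.22 (adjusted p = 0.95). Of the 17 alternative settings, DESeq2 alone called S1pr4 higher in KO Ly6Clo than in WT Ly6Chi (adjusted p = 0.0062).

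S1pr2 couples to G proteins of the G12/13 class and in mouse B cells restrains migration. The gene (ENSMUSG00000043895) lies on the same strand of chromosome 9 as S1pr5, 266.1 kb away, at 20962361 to 20976781. S1pr2 had 35.6, 23.9 and 22.2 CPM in KO Ly6Clo, 26.8, 29.6 and 21.5 CPM in WT Ly6Clo cells, and 39.5, 50.7 and 53.2 CPM in WT Ly6Chi cells. Every Ly6Clo library was thus below every Ly6Chi library, the opposite order to S1pr5. The differences were not called: WT Ly6Clo against WT Ly6Chi gave -0.88 ± 0.24 (adjusted p = 0.093) and KO Ly6Clo against WT Ly6Chi -0.81 ± 0.24 (adjusted p = 0.12, edgeR quasi-likelihood test with Benjamini-Hochberg adjustment). KO and WT Ly6Clo libraries overlapped (0.07 ± 0.24, adjusted p = 1.0). Of the 17 alternative settings, DESeq2 alone called S1pr2 lower in WT Ly6Clo than in WT Ly6Chi (adjusted p = 0.012). For KO Ly6Clo against WT Ly6Chi, S1pr2 was called under 2 of them, DESeq2 and 1 library left out.

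S1pr1 varied more within groups than between them. The gene (ENSMUSG00000045092, minus strand of chromosome 3, 115710433 to 115715072) had 1.33, 23.2 and 17.5 CPM in KO Ly6Clo, 8.75, 27.7 and 21.8 CPM in WT Ly6Clo cells, and 10.3, 21.8 and 39.6 CPM in WT Ly6Chi cells. All 3 groups overlapped, and no comparison was called (adjusted p = 1.0 for KO against WT Ly6Clo, 0.9 for WT Ly6Clo against WT Ly6Chi and 0.76 for KO Ly6Clo against WT Ly6Chi, edgeR quasi-likelihood test with Benjamini-Hochberg adjustment). The summed level of 8 T cell markers was 29.7, 152.4 and 99.3 CPM in KO Ly6Clo, 61.3, 162.7 and 108.9 CPM in WT Ly6Clo cells, and 93.9, 133.8 and 153.4 CPM in WT Ly6Chi cells. This sum placed the 3 libraries of each group in the same order as S1pr1, and so did the sum of the 7 Ly6Clo monocyte markers. The NK, erythroid and plasmacytoid dendritic cell sums matched that order in KO and WT Ly6Clo only. The sum of 7 B cell markers matched it in none of the groups. The part of T cell RNA in the S1pr1 level was not tested.

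S1pr3, best known from endothelial and smooth muscle cells, was the scarcest receptor transcript. The gene (ENSMUSG00000067586, plus strand of chromosome 13, 51408639 to 51422797) had 0, 371 and 103 counts in KO Ly6Clo, 0, 1 and 0 counts in WT Ly6Clo, and 69, 11 and 13 counts in WT Ly6Chi libraries. In CPM, KO Ly6Clo libraries 2 and 3 reached 2.60 and 1.81, WT Ly6Clo libraries at most 0.00663 and WT Ly6Chi libraries 0.229 to 1.23. With KO Ly6Clo library 1 at 0, the KO and WT Ly6Clo groups overlapped. The pooled rate in KO over WT Ly6Clo was 463 (95% counting interval 82.7 to 18300), but the difference was not called (adjusted p = 0.43, edgeR quasi-likelihood test with Benjamini-Hochberg adjustment) and rests on the counts of KO libraries 2 and 3. The pooled rate in WT Ly6Clo over WT Ly6Chi was 0.00637 (95% counting interval 0.00016 to 0.0364), with non-overlapping libraries and adjusted p = 0.12. DESeq2 called both differences (adjusted p = 0.0052 and 0.0086), and edgeR called that of WT Ly6Clo against WT Ly6Chi with the compared groups alone (adjusted p = 0.033) and without KO Ly6Clo library 1 (adjusted p = 0.019). These intervals cover counting error only. The sum of 6 endothelial markers was 2.98, 2.92 and 2.72 CPM in KO Ly6Clo, 0.513, 1.45 and 1.07 CPM in WT Ly6Clo cells, and 1.75, 0.563 and 0.286 CPM in WT Ly6Chi cells, but its markers did not move together. Egfl7 had 0.0931, 2.76 and 2.35 CPM in KO Ly6Clo libraries 1 to 3, high in the same libraries as S1pr3, and at most 1.07 CPM in the WT libraries. Kdr had 2.59, 0.00701 and 0 CPM in KO Ly6Clo, and Cdh5, which encodes VE-cadherin, was at 0 counts in KO Ly6Clo library 3. The part of such cells in the S1pr3 counts was not tested.

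**Figure D2:**
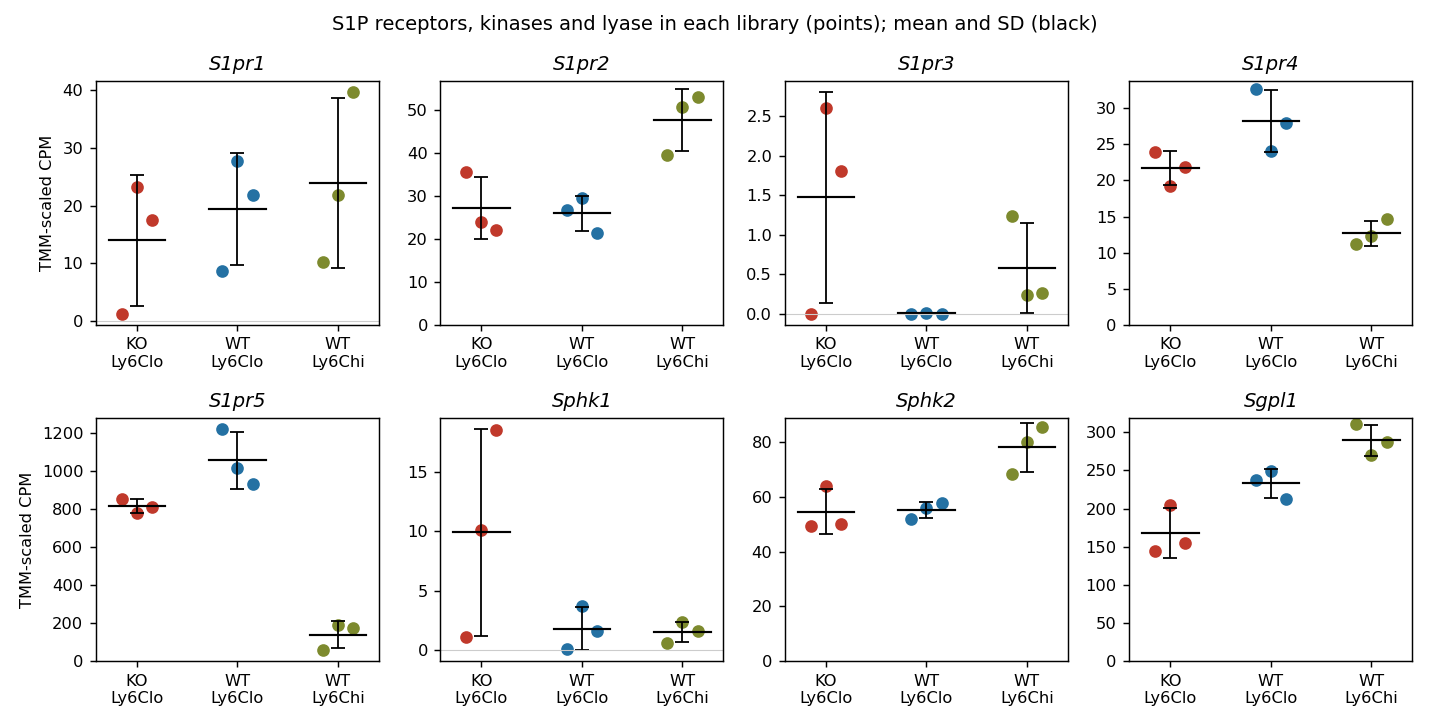
Level of each member (TMM-scaled CPM, linear axes that differ between panels) in each library, with the mean and SD of 3 libraries a group in black. S1pr5 and S1pr4 are higher in every Ly6Clo library than in every WT Ly6Chi library, S1pr2, Sphk2 and Sgpl1 are lower, and S1pr1, S1pr3 and Sphk1 spread widely within groups.

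Set against each other per length, the receptors were dominated by S1pr5. S1pr5 made up 94.9% ± 0.824 of the summed receptor TPM in KO Ly6Clo, 95.1% ± 0.858 in WT Ly6Clo and 72.4% ± 8.03 in WT Ly6Chi cells (SD, n = 3 each). S1pr4 took 2.64%, 2.67% and 8.17% in the same order of groups, S1pr1 1.37%, 1.5% and 10.1%, and S1pr2 0.989%, 0.736% and 9.04%. Without S1pr5 the WT Ly6Chi libraries overlapped both Ly6Clo groups, and the receptor TPM summed to 49.2 to 61.8 in KO Ly6Clo, 63.4 to 68.8 in WT Ly6Clo and 41.2 to 78.3 in WT Ly6Chi cells. As shares of counts, which favour long genes, S1pr5 made up 92.7% in KO Ly6Clo, 93.4% in WT Ly6Clo and 59.9% in WT Ly6Chi.

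**Figure D3:**
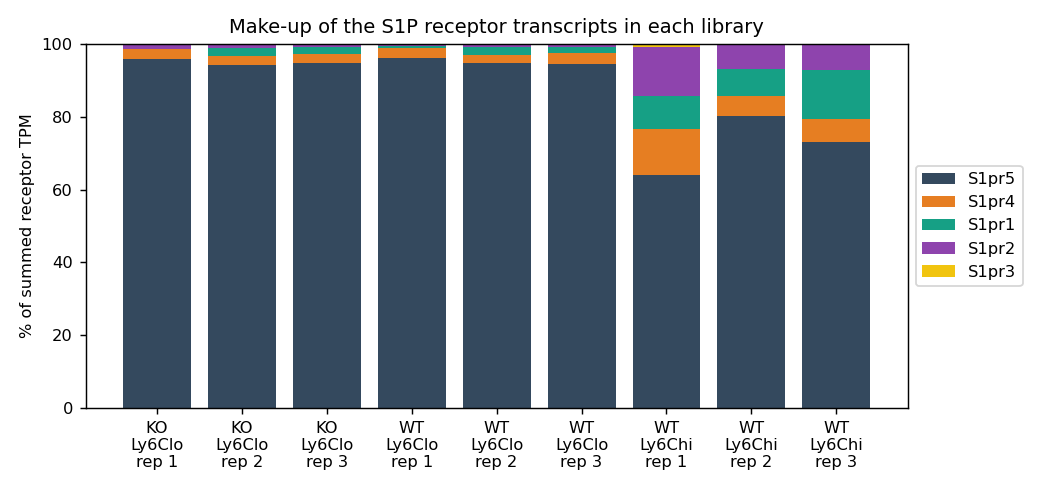
Share of each S1P receptor in the summed TPM of the 5 receptors, 1 bar per library (percent). S1pr5 fills 94.2% to 95.8% of the bars in KO Ly6Clo, 94.5% to 96.1% in WT Ly6Clo and 64.1% to 80.1% in WT Ly6Chi.

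Sphk2, the kinase found largely in the nucleus and at internal membranes, was the main kinase transcript. The gene (ENSMUSG00000057342, minus strand of chromosome 7, 45709467 to 45718002) overlaps Dbp and Rpl18 on the plus strand. Rpl18 had 151.4 to 165.9 CPM in KO Ly6Clo, 133.2 to 169.4 CPM in WT Ly6Clo and 187.8 to 215.0 CPM in WT Ly6Chi libraries. Rpl18 was thus also lower in every Ly6Clo library than in every Ly6Chi library. Sphk2 levels, and their order between groups given next, are less certain if counting ignored strand. The part of Rpl18 reads in the Sphk2 level was not tested. Sphk2 had 49.4, 64.0 and 50.0 CPM in KO Ly6Clo, 51.9, 55.9 and 57.6 CPM in WT Ly6Clo cells, and 68.2, 80.0 and 85.4 CPM in WT Ly6Chi cells. Ly6Clo libraries of either genotype lay below the Ly6Chi libraries, and those of the KO and WT genotypes overlapped. No difference was called: WT Ly6Clo against WT Ly6Chi gave a log2 fold change of -0.50 ± 0.17 (adjusted p = 0.16), KO Ly6Clo against WT Ly6Chi -0.52 ± 0.17 (adjusted p = 0.15) and KO against WT Ly6Clo -0.02 ± 0.17 (adjusted p = 1.0, edgeR quasi-likelihood test with Benjamini-Hochberg adjustment). Of the 17 alternative settings, DESeq2 alone called Sphk2 lower in KO Ly6Clo than in WT Ly6Chi (adjusted p = 0.044).

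Sphk1, the cytosolic kinase that growth factors and cytokines activate, was low and uneven. The gene (ENSMUSG00000061878, plus strand of chromosome 11, 116530925 to 116536675) had 1.09, 10.1 and 18.6 CPM in KO Ly6Clo, 0.055, 3.71 and 1.58 CPM in WT Ly6Clo cells, and 0.608, 2.32 and 1.59 CPM in WT Ly6Chi cells. KO Ly6Clo libraries 2 and 3 exceeded every other library, while KO Ly6Clo library 1 lay within the range of the WT groups. KO against WT Ly6Clo gave 2.47 ± 1.29 (adjusted p = 0.9) and KO Ly6Clo against WT Ly6Chi 2.72 ± 1.30 (adjusted p = 0.34, edgeR quasi-likelihood test with Benjamini-Hochberg adjustment). KO Ly6Clo library 1 was also the lowest of its group in red cell markers, as it was in the T, B and NK cell sums (29.7, 141.3 and 19.6 CPM). The sum of 6 erythroid markers was 1.23, 7545.5 and 1417.8 CPM in KO Ly6Clo. It was 404.5, 3343.6 and 497.6 CPM in WT Ly6Clo cells, and 199.4, 226.4 and 133.4 CPM in WT Ly6Chi cells. Neutrophil markers summed to 2.08, 9.19 and 27.3 CPM in KO Ly6Clo, 3.12, 1.27 and 4.28 CPM in WT Ly6Clo cells, and 248.4, 543.8 and 235.0 CPM in WT Ly6Chi cells. The part of these cells in the Sphk1 level was not tested. The ratio of Sphk2 to Sphk1 in TPM was 3.09 to 52.2 in KO Ly6Clo, 17.3 to 1082.3 in WT Ly6Clo and 39.7 to 128.8 in WT Ly6Chi cells.

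Sgpl1, the lyase, was the second most abundant member in the mean of every group. The gene (ENSMUSG00000020097, minus strand of chromosome 10, 61098642 to 61147703) had 144.7, 205.1 and 154.8 CPM in KO Ly6Clo, 237.4, 248.9 and 212.2 CPM in WT Ly6Clo cells, and 310.1, 270.2 and 287.7 CPM in WT Ly6Chi cells. KO Ly6Clo libraries were the lowest, WT Ly6Clo libraries came next and WT Ly6Chi libraries were the highest, without overlap. Sgpl1 fell 1.72-fold in KO Ly6Clo relative to WT Ly6Chi (log2 fold change -0.78 ± 0.17 SE, adjusted p = 0.035, edgeR quasi-likelihood test with Benjamini-Hochberg adjustment). The call held under 7 of 17 alternative settings, and among the libraries it was kept only on leaving out KO Ly6Clo library 2 (adjusted p = 0.029). Leaving out any other library gave 0.062 to 0.16. Within the 2 series of library numbers the log2 differences were -0.83 and -0.85, each with 1 library on 1 side. The steps within that difference were not called: KO against WT Ly6Clo gave -0.47 ± 0.17 (unadjusted p = 0.021, adjusted p = 0.68) and WT Ly6Clo against WT Ly6Chi -0.31 ± 0.17 (adjusted p = 0.37). Per length, the ratio of Sgpl1 to Sphk2 was 1.98, 2.17 and 2.09 in KO Ly6Clo, 3.10, 3.01 and 2.49 in WT Ly6Clo, and 3.08, 2.29 and 2.28 in WT Ly6Chi, so the KO Ly6Clo libraries were the lowest.

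In mean TPM the order in KO Ly6Clo was S1pr5 (1075.6), Sgpl1 (90.0), Sphk2 (43.1), S1pr4 (30.0), S1pr1 (15.1), S1pr2 (11.3), Sphk1 (6.91) and S1pr3 (1.08), in which S1pr1, S1pr2, Sphk1 and S1pr3 overlapped, each with the next. WT Ly6Clo had the same order, with S1pr5 at 1303.8, Sgpl1 at 116.4, Sphk2 at 40.8 and S1pr4 at 36.6 TPM. There, Sphk2 overlapped S1pr4 and S1pr1 overlapped S1pr2. In WT Ly6Chi the order was S1pr5 (171.2), Sgpl1 (143.7), Sphk2 (57.0), S1pr1 (23.8), S1pr2 (18.3), S1pr4 (16.2), Sphk1 (0.956) and S1pr3 (0.397). S1pr5 and Sgpl1 overlapped in that group, as did S1pr1, S1pr2 and S1pr4, and Sphk1 and S1pr3. The place of S1pr4, ahead of S1pr1 and S1pr2 in Ly6Clo and behind them in Ly6Chi monocytes, was the one change of order, within overlapping ranges in Ly6Chi.

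Counted over the 8 members, all of which passed the filter on low counts, the comparisons differed. KO against WT Ly6Clo called 0 members, where 0.0709% of the 18341 genes tested were called (2 higher and 11 lower). In that comparison 2 members had an unadjusted p under 0.05 in the edgeR test, beside 6.16% of all genes tested. There limma-voom called 0 members and DESeq2 called 1, S1pr3, beside 16 and 277 of the 18341 genes. WT Ly6Clo against WT Ly6Chi called 2 members, S1pr5 and S1pr4, both higher, where 3.51% of genes were called. KO Ly6Clo against WT Ly6Chi also called 2, S1pr5 higher and Sgpl1 lower, where 4.52% of genes were called. Levels did not overlap between groups for 3 members in the comparison of KO and WT Ly6Clo (S1pr4, S1pr5 and Sgpl1, all lower in KO), which is 37.5% of them against 10.9% of all genes. In deposited CPM Sgpl1 alone was apart, where 10.5% of all genes were. TMM-scaled levels did not overlap for 6 members between WT Ly6Clo and WT Ly6Chi, against 28.3% of genes. They did not overlap for 5 between KO Ly6Clo and WT Ly6Chi, against 22.9%. These counts of members were the same in deposited CPM and TPM, where the share of all genes was not counted. The median log2 fold change of the members was -0.20 for KO against WT Ly6Clo, -0.30 for WT Ly6Clo against WT Ly6Chi and 0.12 for KO Ly6Clo against WT Ly6Chi, beside 0.03, 0.00 and 0.04 over all genes tested. Among called genes, the rise of S1pr5 ranked 94 of 345 by size in WT Ly6Clo against WT Ly6Chi and 138 of 377 in KO Ly6Clo against WT Ly6Chi. S1pr4 ranked 262 of 345 in the first of these, and the fall of Sgpl1 ranked 439 of 452 in the second.

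**Figure D4:**
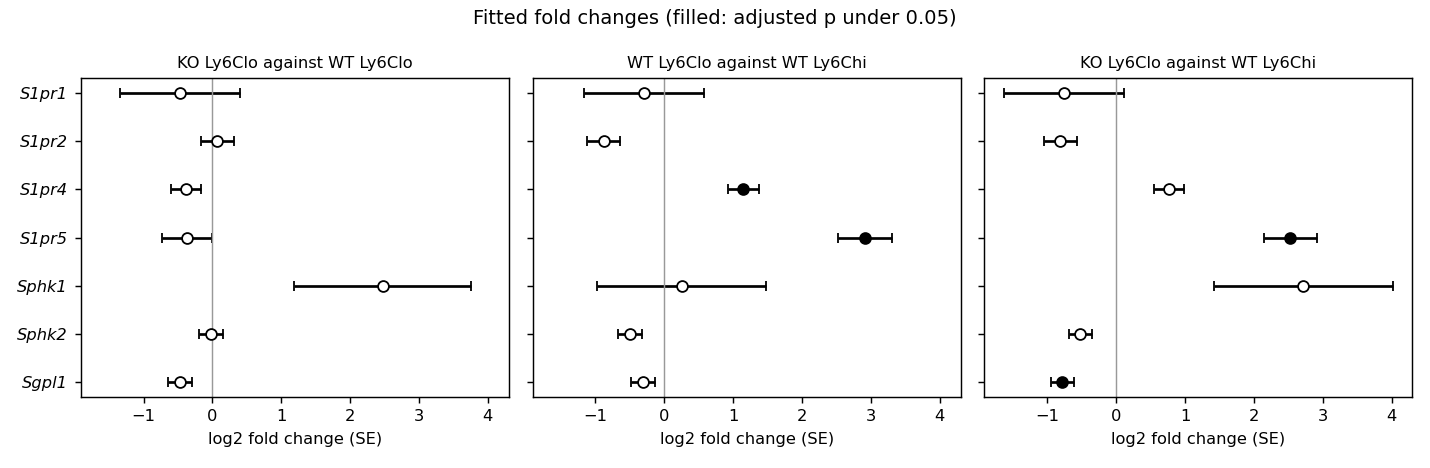
Fitted log2 fold change of 7 members with its SE in each comparison, with filled points for an adjusted p under 0.05 (edgeR quasi-likelihood test, Benjamini-Hochberg adjustment), and S1pr3 left out because its WT Ly6Clo group held 1 count. No point is filled for KO against WT Ly6Clo, S1pr5 (2.91) and S1pr4 (1.15) are filled for WT Ly6Clo against WT Ly6Chi, and S1pr5 (2.53) and Sgpl1 (-0.78) for KO Ly6Clo against WT Ly6Chi.

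Around these genes, 58 further genes of S1P supply, export, removal, signalling and receptor control were examined in 5 lists, of which 52 were tested. KO against WT Ly6Clo called 0 of them in the edgeR test and WT Ly6Clo against WT Ly6Chi also called 0. KO Ly6Clo against WT Ly6Chi called 2, both lower, which is 3.85% of the list beside 4.52% of all genes. At an unadjusted p under 0.05 in that test there were 2 list genes (3.85%, beside 6.16% of all genes tested) for KO against WT Ly6Clo, 12 (23.1%, beside 18.2%) for WT Ly6Clo against WT Ly6Chi and 16 (30.8%, beside 16.9%) for KO Ly6Clo against WT Ly6Chi. Their median log2 fold changes were -0.17, 0.32 and 0.24 in these comparisons.
The called genes both draw on ceramide. Sgms2, which makes sphingomyelin from ceramide at the plasma membrane, had 0.0621, 1.54 and 0.825 CPM in KO Ly6Clo, 9.41, 8.60 and 8.27 CPM in WT Ly6Clo cells, and 77.0, 59.3 and 66.3 CPM in WT Ly6Chi cells. The 3 groups did not overlap, and KO Ly6Clo against WT Ly6Chi gave -6.35 ± 0.86 (adjusted p = 0.0049, edgeR quasi-likelihood test with Benjamini-Hochberg adjustment). WT Ly6Clo against WT Ly6Chi gave -2.95 ± 0.73 (adjusted p = 0.064) and KO against WT Ly6Clo -3.40 ± 0.76 (adjusted p = 0.28). Cerk, the ceramide kinase, had 41.2, 69.7 and 48.5 CPM in KO Ly6Clo, against 132.5, 153.0 and 142.2 CPM in WT Ly6Chi (-1.42 ± 0.23, adjusted p = 0.01 in the same test), and the call was lost without KO Ly6Clo library 3 (adjusted p = 0.052).

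Of the S1P exporters, Mfsd2b, which serves red cells and platelets, had 0.0776, 20.8 and 48.5 CPM in KO Ly6Clo, 2.13, 6.42 and 2.37 CPM in WT Ly6Clo cells, and 1.16, 2.82 and 1.25 CPM in WT Ly6Chi cells. Like Sphk1, it was high in KO libraries 2 and 3 and low in KO library 1, and it was called in no comparison. Spns2, the endothelial exporter, averaged 3.70 ± 2.55 CPM in KO Ly6Clo, 2.06 ± 0.955 CPM in WT Ly6Clo and 0.721 ± 0.571 CPM in WT Ly6Chi (SD, n = 3 each), also with no call. Sgpp1, a phosphatase that returns S1P to sphingosine, was 157.6 ± 64.1 CPM in KO Ly6Clo, 175.7 ± 19.6 CPM in WT Ly6Clo and 159.4 ± 5.08 CPM in WT Ly6Chi. Aldh3a2, which oxidises the aldehyde that the lyase releases, was 154.5 ± 2.46 CPM in KO Ly6Clo, 179.4 ± 32.7 CPM in WT Ly6Clo and 116.9 ± 15.6 CPM in WT Ly6Chi. For sphingosine supply, Degs1, the dihydroceramide desaturase, averaged 431.1 ± 67.2 CPM in KO Ly6Clo, 500.0 ± 30.8 CPM in WT Ly6Clo and 392.3 ± 49.2 CPM in WT Ly6Chi. Asah1, the acid ceramidase that frees sphingosine, averaged 375.2 ± 102.5 CPM in KO Ly6Clo, 389.4 ± 28 CPM in WT Ly6Clo and 525.2 ± 18.7 CPM in WT Ly6Chi. None of these was called in any of the 3 comparisons.
Among signalling genes, Gnai2, the inhibitory G protein subunit that carries chemotactic signals, averaged 1221.2 ± 171.6 CPM in KO Ly6Clo, 1255.8 ± 101.7 CPM in WT Ly6Clo and 1321.8 ± 142.9 CPM in WT Ly6Chi. Arhgef1, which acts downstream of G12/13-coupled receptors, averaged 1504.6 ± 449.7 CPM in KO Ly6Clo, 1815.7 ± 443.6 CPM in WT Ly6Clo and 923.3 ± 278.3 CPM in WT Ly6Chi. Of the transcription factors, Klf2, which drives S1pr1 in T cells, averaged 1544.2 ± 431.6 CPM in KO Ly6Clo, 1428.1 ± 198.3 CPM in WT Ly6Clo and 793.8 ± 311.6 CPM in WT Ly6Chi. Nr4a1, which mouse Ly6Clo monocytes need, averaged 4497.4 ± 2498.8 CPM in KO Ly6Clo, 6376.2 ± 4398.5 CPM in WT Ly6Clo and 1911.5 ± 1378.5 CPM in WT Ly6Chi. No gene of either list was called, at adjusted p-values of 0.14 or more for those named (edgeR quasi-likelihood test with Benjamini-Hochberg adjustment).

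For the members called in some comparison, the genes of most similar pattern were sought among 9063 genes with a mean of at least 5 CPM, by the root mean square difference of log2(CPM + 1), centred on each gene's mean, over the 9 libraries. All genes share these libraries and their depth, so the differences are descriptions. Nearest to S1pr5 was Eno3, the muscle form of enolase, at a difference of 0.10 against a median of 1.44 over all candidates. Eno3 averaged 727.8 ± 90.6 CPM in KO Ly6Clo, 971.7 ± 173.4 CPM in WT Ly6Clo and 131.1 ± 72.3 CPM in WT Ly6Chi (SD, n = 3 each). Bcl2a1d (0.16) and Bcl2a1b (0.22), anti-apoptotic genes of the BCL2 family, followed, though near-identical copies make their counts less certain. Nearest to S1pr4 were Rras, a small GTPase (0.12), P4ha1, a collagen prolyl hydroxylase subunit (0.14), and Lyl1, a blood-cell transcription factor (0.15), against a median of 0.57. Nearest to Sgpl1 were Gltp, a glycolipid transfer protein (0.12), Ermard (0.14) and Kctd20 (0.15), against a median of 0.52.

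**Figure D5:**
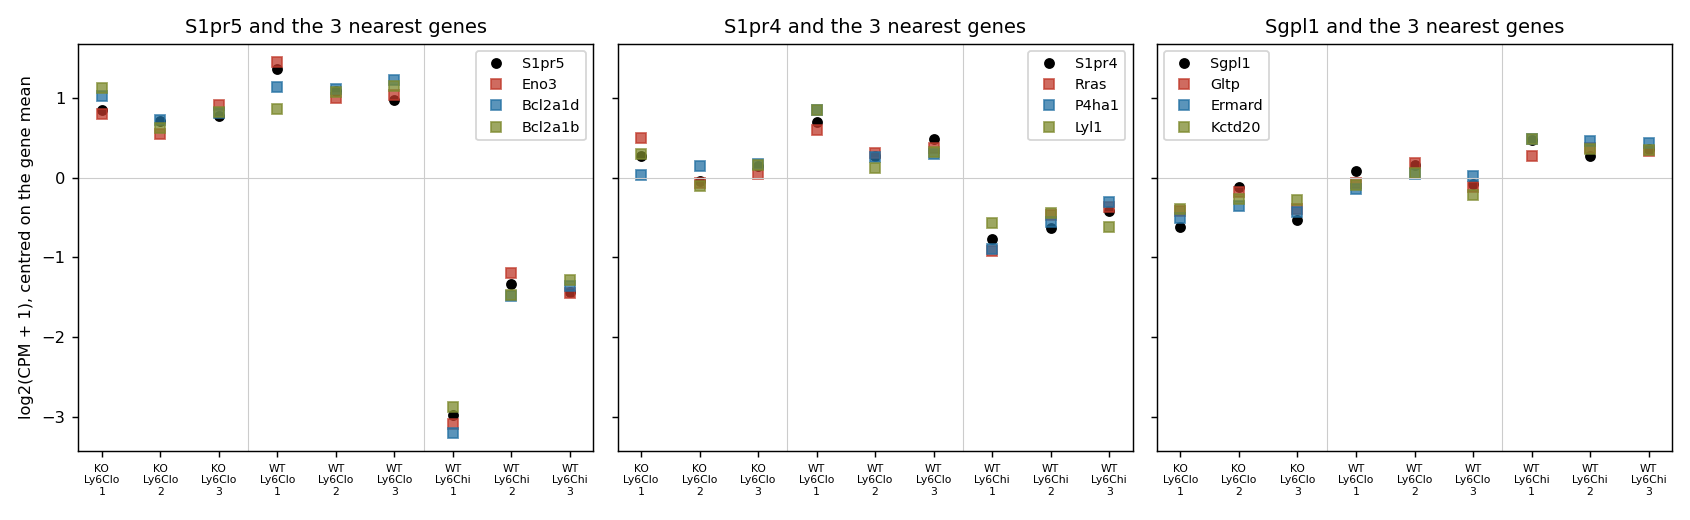
log2(CPM + 1), centred on each gene's mean, in the 9 libraries for S1pr5, S1pr4 and Sgpl1 (black) and the 3 genes nearest to each (coloured). S1pr5 and Eno3, 0.10 apart in root mean square, both fall lowest in WT Ly6Chi library 1.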

How the data were processed

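The tables of 9 libraries each hold 55487 gene IDs. Counts of reads per gene, whole and without scaling, were deposited by the authors, per the file headers. CPM, FPKM and TPM were deposited by the authors beside the counts. TPM was used only to set genes against each other, deposited CPM only as an alternative for levels, and FPKM in no result. The submitters' processing notes name Salmon 0.8.2, STAR 2.5.1a, featureCounts 1.4.6-p5 (Subread), bcl2fastq, limma, edgeR and the build GRCm38 (mm10), without roles. The strand setting of the counting was not given in the sources used here. Per the labels' protocols, libraries were made with the SMARTer Ultra Low kit from amplified cDNA, so PCR copies cannot be told from molecules. Symbols came from GENCODE M21 for 55141 IDs (99.38%).

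Depth was 48141590 to 173703361 counts a library, which makes 3 counts 0.0173 to 0.0623 CPM. Replicates differed by a chi-square of 56.4 to 547 per gene, so no library looked like a repeat of another. Counts were fitted in R 4.3.3 with edgeR 4.0.16 (filterByExpr with a minimum count of 10, TMM scaling, 1 term per group over all 9 libraries, quasi-likelihood test), and p-values were Benjamini-Hochberg adjusted over 18341 genes and called under 0.05. The script was tested on simulated data. The SE came from the F statistic. Alternatives were DESeq2 1.42.0, limma-voom 3.58.1, RLE scaling, other filters, the compared groups alone, a term for the library-number series, a replicate block and leaving out each library. The genes named were the members, Cebpa, up to 4 called genes of each pathway list or, with none called, its 2 of the highest level, and the 3 genes of nearest pattern. Sgms2 outside its called comparison was named after its values were seen. The members and lists were chosen with earlier results of these data known.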

Additional observations from a re-analysis of the deposited data

How the results depend on the processing

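S1pr5 kept its calls throughout. Called members numbered 0 for KO against WT Ly6Clo (1 with DESeq2, 0 on leaving out any library), 2 for WT Ly6Clo against WT Ly6Chi (4 with DESeq2, 3 with the compared groups alone, 1 to 3 on leaving out a library) and 2 for KO Ly6Clo against WT Ly6Chi (5 with DESeq2, 1 with the compared groups alone, 1 without a filter, 1 to 2 on leaving out a library). Over all genes the calls were 13 for KO against WT Ly6Clo (277 with DESeq2, 27 with a filter of 1 CPM in 3 libraries, 54 without a filter, 0 with the compared groups alone, with 859 at an edgeR p under 0.05 before adjustment, and 2 to 21 on leaving out a library). They were 643 for WT Ly6Clo against WT Ly6Chi (1968 with DESeq2, 828 of 16518 tested with the compared groups alone, 239 to 847 on leaving out a library). They were 829 for KO Ly6Clo against WT Ly6Chi (1950 with DESeq2, 553 of 16999 tested with the compared groups alone, 866 of 40521 tested without a filter, 379 to 818 on leaving out a library). Libraries of different groups were correlated on log2 CPM after each gene's group mean was taken off. These deviations correlated at r of 0 to 0.26 for same-numbered libraries, beside -0.21 to 0.1 for differently numbered ones. Same-numbered libraries were not taken as pairs in the main fit. The replicate block gave 13, 949 and 977 calls in these comparisons and changed no member's call. With the block, Sphk1 turned to -0.69 in WT Ly6Clo against WT Ly6Chi. Log2 fold changes that changed sign were all of uncalled genes, and the cause was not tested. On leaving out 1 library, KO against WT Ly6Clo ranged from -1.07 to 0.06 for S1pr1, -0.19 to 0.19 for S1pr2 (0.00 with limma-voom), -0.17 to 0.04 for Sphk2, -0.29 to 0.12 for Asah1, -0.17 to 0.04 for Gnai2, -0.12 to 0.29 for Klf2, -0.91 to 0.19 for Nr4a1 and -0.55 to 0.02 for Sgpp1. WT Ly6Clo against WT Ly6Chi ranged from -0.65 to 0.30 for S1pr1 (0.09 with a term for the library-number series) and -0.88 to 0.84 for Sphk1 (-0.27 with limma-voom). KO Ly6Clo against WT Ly6Chi ranged from -0.41 to 0.17 for Sgpp1 (0.01 without a filter). Mean levels of the members, 24 in all, moved by less than 1 SD under RLE scaling and in deposited CPM. Members whose libraries did not overlap between KO and WT Ly6Clo numbered 3 with TMM scaling, 1 in deposited CPM and 2 in TPM, a check chosen after seeing the data. The share of all genes was 10.9% with TMM scaling and 10.5% in deposited CPM, and was not counted in TPM. Depth limits S1pr3 in WT Ly6Clo, where 1 count was seen in all.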
